A study of Mus musculus with 44 samples.

Results

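The genes described here are 9 coregulators of nuclear receptors, taken by symbol from the 55487 genes counted in both tables of the study. They are the coactivators Ncoa1, Ncoa2 and Ncoa3, the acetyltransferases Crebbp and Ep300, the Mediator subunit Med1, the corepressor Ncor1, its deacetylase partner Hdac3, and the ligand-dependent corepressor Nrip1. All 9 identifiers were found in both tables, and all 9 passed the filter on low counts in each. Each had at least 1060 counts in every bulk library and at least 224 in every assigned sorted library.

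The study used viruses to raise RXRa, the alpha form of the retinoid X receptor, in the mouse nucleus accumbens, a ventral part of the striatum, and measured RNA. Bulk tissue was male and had a herpes simplex virus (HSV) vector with GFP (n = 4) or with RXRa (n = 4). The sorted nuclei were labelled D1 or D2, for striatal neurons with the dopamine receptor Drd1 or Drd2, and had a Cre-dependent adeno-associated virus. That vector, AAV9 with the broadly active CAG promoter and a DIO cassette, carried EGFP alone or EGFP-P2A-RXRa. The sorted groups were D1 female (5 EGFP, 4 RXRa), D1 male (5 EGFP, 4 RXRa), D2 female (4 EGFP, 4 RXRa) and D2 male (5 EGFP, 4 RXRa). Every control animal therefore also carried a virus and a fluorescent protein. The Cre line, the strain, the age, the time after infusion and any pooling of animals are not given in the sources used here, so p-values measure the spread between these libraries.

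Nuclear receptors such as RXR bind DNA, mostly as dimers with a partner receptor, and act through proteins they recruit. Without an activating ligand, a partner receptor typically holds a corepressor complex such as that of NCOR1, whose HDAC3 removes acetyl groups from histones. Ligand binding releases that complex and opens a surface for the p160 coactivators NCOA1 to NCOA3, which bring the acetyltransferases CREBBP (CBP) and EP300 (p300). MED1 then links the receptor to Mediator and RNA polymerase II. NRIP1 (RIP140) binds the same ligand-activated surface but recruits repressors. These proteins are shared by many receptors and are made in nearly all cells, neurons of the striatum included.

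Upstream windows are shown because the delivered protein belongs to a family that binds DNA at a short half-site. RefSeq windows of 250 bases before a transcription start were at hand for 6 of the 9 genes (8 windows, assembly GRCm38.p6), and 4 of these do not overlap an exon of their gene. The 3 given belong to Nrip1, at both of its listed starts, and to Ncoa1, the gene with the largest fitted difference in bulk. Sequences run 5′ to 3′ on the coding strand, which is the minus strand for both genes. Capitals mark half-site letters, searched on both strands. These were AGGTCA (which reads TGACCT on the other strand), AGTTCA (which reads TGAACT there), GGGTCA (which reads TGACCC there) and GGTTCA (which reads TGAACC there).
Nrip1, outer start, chr16:76373828-76374077: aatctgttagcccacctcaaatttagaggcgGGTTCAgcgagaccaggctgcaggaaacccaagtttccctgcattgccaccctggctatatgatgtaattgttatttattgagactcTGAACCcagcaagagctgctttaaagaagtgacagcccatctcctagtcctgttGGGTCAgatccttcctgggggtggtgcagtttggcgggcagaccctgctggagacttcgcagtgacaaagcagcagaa
Nrip1, inner start, chr16:76373050-76373299: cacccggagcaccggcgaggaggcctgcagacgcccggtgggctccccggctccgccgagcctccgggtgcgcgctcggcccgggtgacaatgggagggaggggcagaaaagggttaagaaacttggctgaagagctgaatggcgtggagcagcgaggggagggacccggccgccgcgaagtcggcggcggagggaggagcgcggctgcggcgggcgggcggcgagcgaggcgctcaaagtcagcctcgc
Ncoa1, chr12:4477183-4477432: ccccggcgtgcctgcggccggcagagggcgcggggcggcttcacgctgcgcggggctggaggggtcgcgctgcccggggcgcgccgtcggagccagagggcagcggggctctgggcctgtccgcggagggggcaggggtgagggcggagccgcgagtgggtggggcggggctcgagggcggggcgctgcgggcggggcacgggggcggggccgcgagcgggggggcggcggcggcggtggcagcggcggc

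The outer Nrip1 window held 3 matches, with their first bases 219 (GGTTCA), 132 (TGAACC) and 78 (GGGTCA) bases before the start. Its GC content was 51.2% with 4 CpG pairs. Neither the inner Nrip1 window (73.6% GC, 32 CpG pairs) nor the Ncoa1 window (85.6% GC, 40 CpG pairs) held a match. Of the 5 other windows, 1 before an inner start of Ncor1, also free of its exons and not given in full, held a single TGAACC. Among all 32851 windows of this length, AGGTCA was present in 14%, AGTTCA in 11.8%, GGGTCA in 11.6%, GGTTCA in 8.8%, and any of the 4 in 38.6%. The median window had 52.4% GC and 6 CpG pairs. A match of letters is a description of the sequence and not a binding site, and binding was not measured.

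In GENCODE M21, on the same mouse assembly, the p160 genes Ncoa2 and Ncoa1 are the longest of the set. Ncoa2 spans 235 kb (chr1:13139105-13374083), Ncoa1 spans 229.8 kb (chr12:4247362-4477182), and Ncoa3 spans 80.6 kb (chr2:165992636-166073242). Ncor1 (chr11:62316426-62458541) and Crebbp (chr16:4081328-4213997) span 142.1 and 132.7 kb. Nrip1 spans 86.4 kb (chr16:76287400-76373827), Ep300 66.7 kb (chr15:81585351-81652077), Med1 41.1 kb (chr11:98152154-98193293) and Hdac3 19.2 kb (chr18:37935844-37955016). Ncoa3 and Ep300 lie on the plus strand and the other 7 on the minus strand. Between 78.6% (Ep300) and 96.3% (Ncoa1) of each span is intron. Nrip1 and Hdac3 overlap no other annotated gene, whereas Ncor1 overlaps Pigl and Ttc19, and Ncoa3 overlaps Sulf2, all on the opposite strand. The use of strand in counting is not given in the sources used here, so reads of such partners may be shared. On the same strand, Ncoa2 overlaps 7 annotated genes, Ep300 2 and Crebbp 1, none of them protein-coding.

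The labels were checked first. Vector-encoded RXRa had 0 counts in all 4 bulk GFP libraries, 22.1 to 37.7 CPM (counts scaled to the library's size) in bulk RXRa, at most 17 counts in any sorted EGFP library and 43.4 to 710 CPM in the 16 sorted RXRa libraries. By group, these RXRa libraries had 86.6 to 285 CPM in D1 females and 43.4 to 255 in D1 males. The D2 values reached higher, at 198.5 to 710 CPM in females and 134 to 619 in males. Endogenous Rxra stayed within 26.7 to 57.6 CPM across all groups. Under EGFP, all 5 D2 markers were called higher in D2 than in D1 nuclei (Drd2 by 3.47 on the log2 scale, SE 0.16) and 3 of 4 D1 markers lower (Drd1, -2.03, SE 0.24). Depth was 21567565 to 29167142 total counts per bulk library, against 12211655 to 27757463 per assigned sorted library. No marker of the 9 cell type lists was at 0 in any library.

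In bulk accumbens the 9 genes fell into 3 bands of level per exon length. Under GFP, Ncor1 stood at 21.2 ± 0.97 CPM per kb of exon (SD, n = 4), Ncoa1 at 19.8 ± 1.37 and Hdac3 at 19.6 ± 0.67. The middle band held Ncoa2 (9.02 ± 0.62), Ncoa3 (8.44 ± 0.18), Med1 (8.05 ± 0.63), Ep300 (7.80 ± 0.64) and Crebbp (6.81 ± 0.35), and Nrip1 was lowest at 4.27 ± 0.49 CPM per kb. Neighbours within a band differed by no more than about their summed SDs, while the steps from Hdac3 to Ncoa2 and from Crebbp to Nrip1 were wider than that. So, per kb of exon, the corepressor Ncor1, its enzyme Hdac3 and the coactivator Ncoa1 had the most poly(A) RNA, and the corepressor Nrip1 the least. Per kb of gene body, Hdac3 (4.15 CPM) and Ncor1 (1.91) were highest and Nrip1 (0.57) again lowest, but Ncoa1 stood at 0.74, below Med1 (1.71), Ep300 (1.67) and Ncoa3 (0.83).

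The order was different in sorted nuclei, where total RNA was sequenced. Per kb of exon, the 19 EGFP libraries gave Ncoa1 at 23.3 CPM, Ncoa2 at 12.02, Ncor1 at 11.2, Crebbp at 10.4, Ncoa3 at 8.42, Nrip1 at 5.79, Ep300 at 4.56, Hdac3 at 4.42 and Med1 at 3.87. The ratio of sorted to bulk level ran from 0.225 (Hdac3, the shortest span) to 1.52 (Crebbp), but Ncor1, with a longer span than Crebbp, was at 0.529. Across the 9 genes, which are not independent replicates, the ratio and the span had a Spearman's rho of 0.63. Per kb of gene body, the same libraries lay close together, from 0.767 CPM (Nrip1) to 1.06 CPM (Crebbp). The measure of length therefore sets the order in sorted nuclei, and these levels are given on both scales for that reason.

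A floor of counts in genes that bulk tissue does not use was measured beside these levels. Over 1576 autosomal protein-coding genes with no count in any bulk library, the level per kb of gene body was computed in each sorted library, and its median is called silent-gene density here. Counts of such genes rose with the length of the gene body (Spearman's rho 0.797 across genes, which are not independent) and hardly with exon length (rho 0.066). In EGFP libraries the 9 coregulators stood at 1.48 times (Nrip1) to 2.048 times (Crebbp) this density per kb of gene body. A gene at exactly that density would already have 67.7% of the counts of Nrip1, 65.1% of those of Ncoa2, 51.9% of those of Ncor1 and 49.5% of those of Crebbp. Density was 0.471 to 0.564 in the EGFP libraries and reached down to 0.377 in the RXRa libraries.

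**Figure D1:**
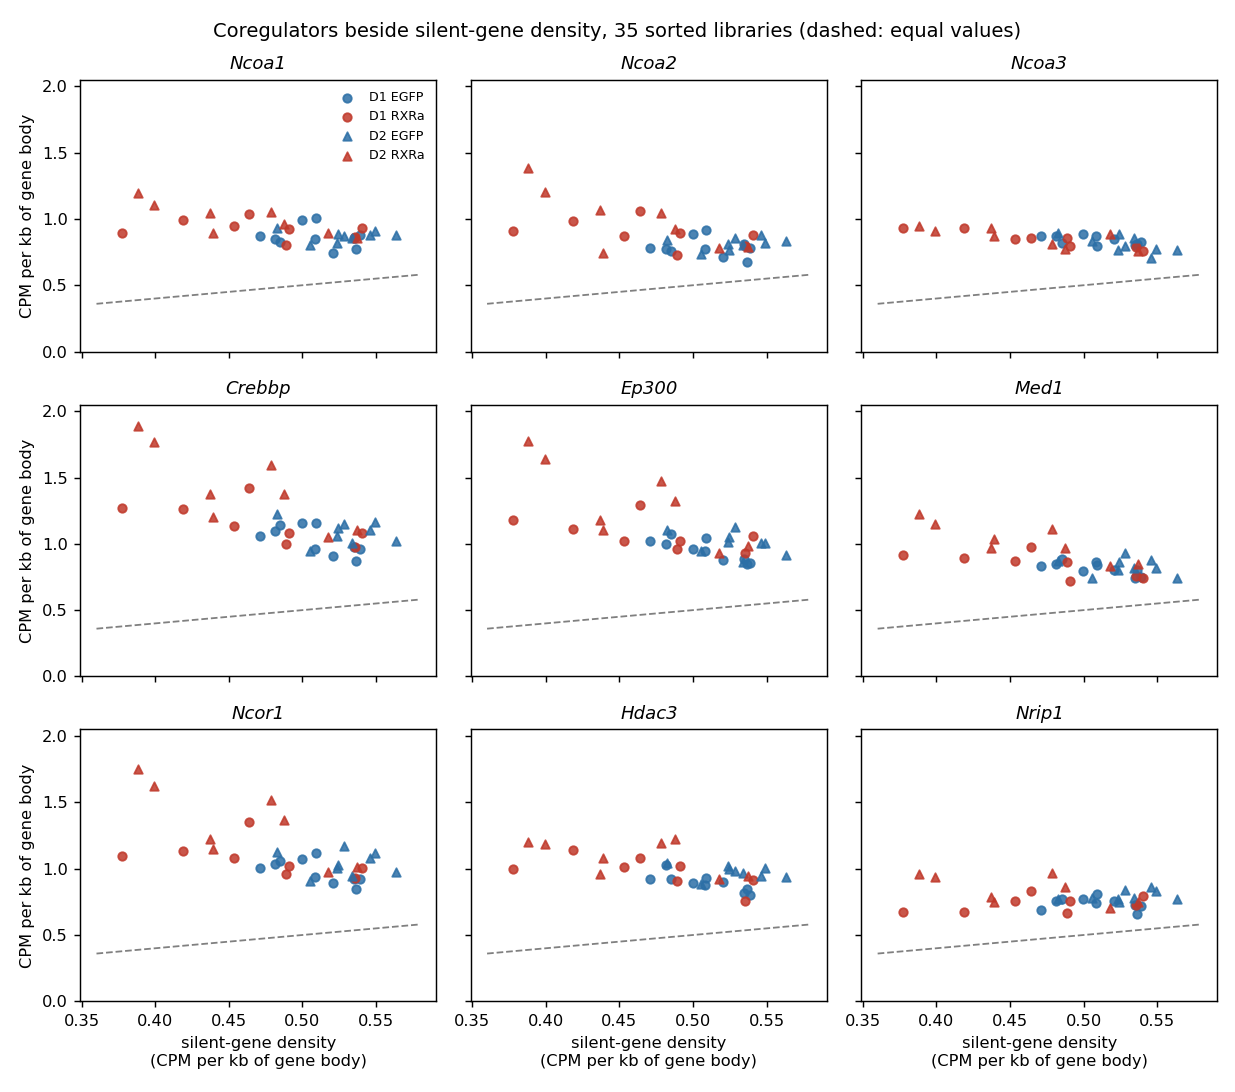
Each panel plots 1 coregulator in the 35 sorted libraries, with silent-gene density on the horizontal axis and the gene's level on the vertical axis, both in CPM per kb of gene body with TMM scaling. Circles are D1 and triangles D2, blue is EGFP and red RXRa, and the dashed line marks equal values. All 9 genes lie above the line, and the highest Crebbp, Ep300 and Ncor1 points are D2 RXRa libraries with a density of 0.388 and 0.399.

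RXRa delivery to bulk accumbens left all 9 coregulators short of the threshold (edgeR's quasi-likelihood test, adjusted p under 0.05 over all genes, which is what called means throughout). Of 18579 genes tested, 687 were called, or 3.7%, and 0 of the 9 were, with 2 at an unadjusted p under 0.05. Those 2, Ncoa1 and Ncoa3, are p160 coactivators and went in opposite directions. The median of the 9 log2 fold changes was -0.04, beside -0.02 over all genes tested.

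Ncoa1 had 166, 155, 175 and 182 CPM under GFP (4 libraries) and 142, 154, 149 and 142 under RXRa. Every RXRa library lay below every GFP library. The fitted log2 fold change was -0.21 (SE 0.06, 95% interval -0.35 to -0.07), with an edgeR adjusted p of 0.094. DESeq2 gave -0.20 with an adjusted p of 0.04, and so called it.

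Ncoa3 had 65.4, 65.6, 67.2 and 68.4 CPM under GFP and 73.5, 71.5, 77.2 and 74.1 under RXRa. Here every RXRa library lay above every GFP library. The difference was 0.15 (SE 0.04, interval 0.05 to 0.25), again with an edgeR adjusted p of 0.094, and DESeq2 gave 0.16 with 0.0212. Groups that do not overlap were found for 2 of the 9 genes and for 13.2% of all genes tested.

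Groups of the other 7 coregulators overlapped in bulk. The third p160 gene, Ncoa2, had 128 to 150 CPM under GFP and 122 to 145 under RXRa, a difference of -0.12 (interval -0.28 to 0.05). The corepressor Ncor1 had 256 to 282 CPM and 233 to 265, a difference of -0.11 (interval -0.24 to 0.02). Both intervals include 0 and also changes of the size fitted for Ncoa1. The histone acetyltransferases differed by -0.07 (Crebbp, interval -0.18 to 0.05) and -0.01 (Ep300, -0.19 to 0.16). Med1 differed by 0.04 (-0.10 to 0.17), Hdac3 by 0.01 (-0.13 to 0.15) and Nrip1 by -0.04 (-0.26 to 0.19). Nrip1 had the widest interval, with 1 GFP and 1 RXRa library near 41 CPM and the rest at 46.1 to 52.7.

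**Figure D2:**
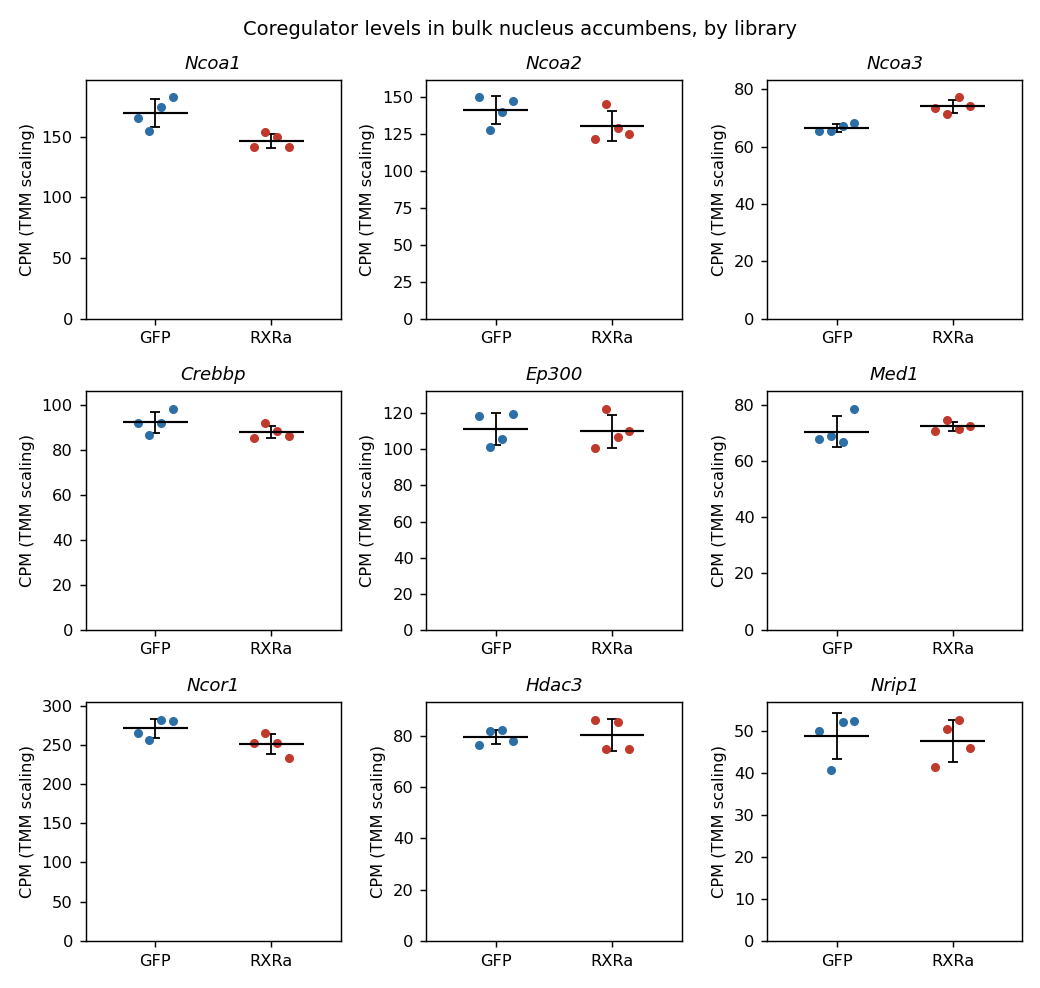
Each panel shows 1 coregulator in bulk accumbens as CPM with TMM scaling on an axis from 0, a dot per library (4 GFP, 4 RXRa), with the group mean as a line and its SD as a bar. Only Ncoa1 (lower) and Ncoa3 (higher) have RXRa dots wholly outside the GFP range.

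Among 69 other coregulators listed beside the 9, 67 were tested in bulk and 1 was called. Med12, a Mediator subunit in the CDK8 kinase module, was higher by 0.29 (SE 0.05, adjusted p 0.0153). That call was lost without GFP library 4 (0.28, adjusted p 0.0711) and without RXRa library 4 (0.28, adjusted p 0.057). None of the 4 genes listed for the corepressor complex, 19 other coactivators or 13 tested corepressors was called.

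Markers of some cell types in the tissue moved alongside. The summed level of 5 T and NK cell markers, all called higher, was 39.4 to 67.7 CPM under GFP and 79.7 to 180 under RXRa, and 10 of 10 interferon-response genes were also called higher. Of 5 astrocyte markers 1, Aqp4, was called higher (0.57, SE 0.13). Summed D2 markers ran from 1643 to 1946 CPM under GFP and from 1503 to 1675 under RXRa (1 of 5 called, lower). Summed oligodendrocyte markers ran from 4275 to 4812 and from 2586 to 4471 (0 of 5 called). Summed cortical excitatory markers spread widely within both groups, from 6.51 to 608 CPM under GFP and from 58.1 to 460 under RXRa (0 of 3 called). None of 5 microglial, 4 endothelial, 4 interneuron or 4 D1 markers was called. The part of these shifts in the values of Ncoa1 and Ncoa3 was not tested, and in bulk tissue fewer cells of a type and less RNA per cell cannot be told apart.

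In D1 nuclei no coregulator was called, in either sex or over both. By edgeR 0% of 43902 genes were called in each of these 3 comparisons. At an unadjusted p under 0.05 there were 3518 genes over both sexes, 2757 in females and 1326 in males, with 0 of the 9 among them, and DESeq2 called 0, 4 and 0 genes. Fitted differences over both sexes ran from -0.01 (Nrip1) to 0.18 (Ncoa2), with 8 of 9 above 0 and a median of 0.13, beside -0.01 for all genes. The widest intervals were those of Ep300 (-0.02 to 0.37) and Crebbp (-0.02 to 0.36), which reach almost to the differences of 0.38 and 0.39 fitted in D2 nuclei.

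Crebbp shows how D1 libraries lay. Female EGFP libraries had 140, 151, 120, 115 and 154 CPM, and female RXRa libraries 168, 133, 144 and 168. Male EGFP libraries had 127, 145, 153, 127 and 130 CPM, and male RXRa libraries 189, 143, 130 and 151. The groups overlapped in both sexes, and 1 male RXRa library, replicate 1, was the highest D1 library for 7 of the 9 genes.

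D2 nuclei gave the most calls. Over both sexes, 6 of the 9 coregulators were higher with RXRa and 0 lower: both acetyltransferases, Ncor1, Med1, Ncoa1 and Ncoa2. In that comparison 22.1% of 43902 genes were called, 14.9% as higher. Most genes tested there are barely used in the tissue, so nearer backgrounds were also taken. Of 11119 genes above 10 CPM in bulk, as all 9 are, 44.7% were higher, and of those with a gene body of at least 40 kb, as 8 of the 9 have, 47.4% were. The median difference of the 9 was 0.28, against 0.21 and 0.16 for those 2 backgrounds. The 9 genes, with 6 calls, were thus not set apart from widely used genes of the tissue by their count.

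Crebbp, which encodes the acetyltransferase CBP, differed most. D2 female EGFP libraries had 126, 153, 141 and 135 CPM, and RXRa libraries 182, 146, 251 and 182. D2 male EGFP libraries had 133, 147, 149, 155 and 163 CPM, and RXRa libraries 140, 160, 212 and 235. In females 3 of 4 RXRa libraries, and in males 2 of 4, exceeded every EGFP library of their sex. The difference was 0.39 (SE 0.10, 1.31-fold, adjusted p 0.0121).

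Its paralog Ep300 followed the same libraries. Female EGFP libraries had 63.0, 75.4, 67.8 and 61.1 CPM, and RXRa libraries 88.5, 65.8, 119 and 78.5. Male EGFP libraries had 57.4, 66.9, 70.2, 66.9 and 73.5 CPM, and RXRa libraries 62.0, 73.8, 98.3 and 110. The difference was 0.38 (SE 0.10, adjusted p 0.0132), with 3 of 4 RXRa libraries above every EGFP library in each sex.

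Ncor1, which encodes the corepressor, rose as well. Female EGFP libraries had 129, 167, 143 and 138 CPM, and RXRa libraries 194, 144, 249 and 174. Male EGFP libraries had 134, 154, 146, 159 and 160 CPM, and RXRa libraries 139, 163, 216 and 231. The difference was 0.36 (SE 0.10, adjusted p 0.0137), and 1 RXRa library of each sex stayed within the EGFP range.

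Med1, which joins receptors to Mediator, had 30.6, 38.2, 33.0 and 30.4 CPM in female EGFP libraries and 39.9, 34.8, 50.3 and 39.9 in RXRa libraries. In males the values were 33.7, 36.3, 35.5, 33.7 and 35.8 CPM under EGFP and 34.3, 42.5, 45.8 and 47.3 under RXRa. It had the smallest adjusted p of the set, 0.0114, with a difference of 0.30 (SE 0.07).

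Among the p160 coactivators, Ncoa2 had 172, 200, 191 and 196 CPM in female EGFP libraries and 217, 186, 326 and 251 in RXRa libraries. Male values were 189, 207, 179, 193 and 198 CPM under EGFP and 184, 174, 245 and 282 under RXRa. The difference of 0.28 (SE 0.09, adjusted p 0.0305) hides that 2 of the 4 male RXRa libraries lay inside or below the EGFP range.

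Ncoa1, which stood lower in bulk without being called, had 184, 199, 188 and 202 CPM in D2 female EGFP libraries and 221, 197, 274 and 239 in RXRa libraries. Male values were 197, 202, 205, 209 and 215 CPM under EGFP and 206, 206, 242 and 255 under RXRa. It was higher by 0.21 (SE 0.065, adjusted p 0.0254). Bulk poly(A) RNA of all cells and total RNA of D2 nuclei are different measurements, with different viruses, and the difference between them was not tested.

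The other 3 coregulators were not called in D2 nuclei. Ncoa3 had 56.7 to 71.9 CPM in the 9 EGFP libraries and 61.2 to 76.4 in the 8 RXRa libraries, a difference of 0.09 (interval -0.02 to 0.20). Nrip1 had 65.0 to 74.5 CPM and 60.6 to 83.7, a difference of 0.08 (-0.05 to 0.20). Hdac3 had 17.0 to 20.0 CPM and 17.7 to 23.5, a difference of 0.16 (0.01 to 0.30, unadjusted p 0.0329, adjusted p 0.102). No difference between these 3 and the 6 called genes was tested, and their intervals overlap those of Ncoa1 and Ncoa2.

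In neither sex did the D2 groups of any of the 9 genes separate fully, and the share of all genes that did so in a single sex was not taken. Groups apart in both sexes in the same direction were found for 0.18% of all genes and 0 of the 9. Taken by sex, edgeR called 0% of genes and 0 of the 9. In females 11080 genes and 6 of the 9 had an unadjusted p under 0.05, and DESeq2 called 3672 genes and 6 of the 9. In males 8656 genes and 4 of the 9 had an unadjusted p under 0.05, and DESeq2 called 23 genes and 0 of the 9. All 9 differences were above 0 in both sexes. The difference between the sexes in the RXRa effect was called for 0% of genes and 0 of the 9 in D1 and in D2 (912 and 1324 genes at an unadjusted p under 0.05, 0 of the 9 in each, and 2 and 0 genes by DESeq2). In D2 its estimates ran from 0.02 (Nrip1) to 0.17 (Ncoa2, interval -0.20 to 0.55).

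**Figure D3:**
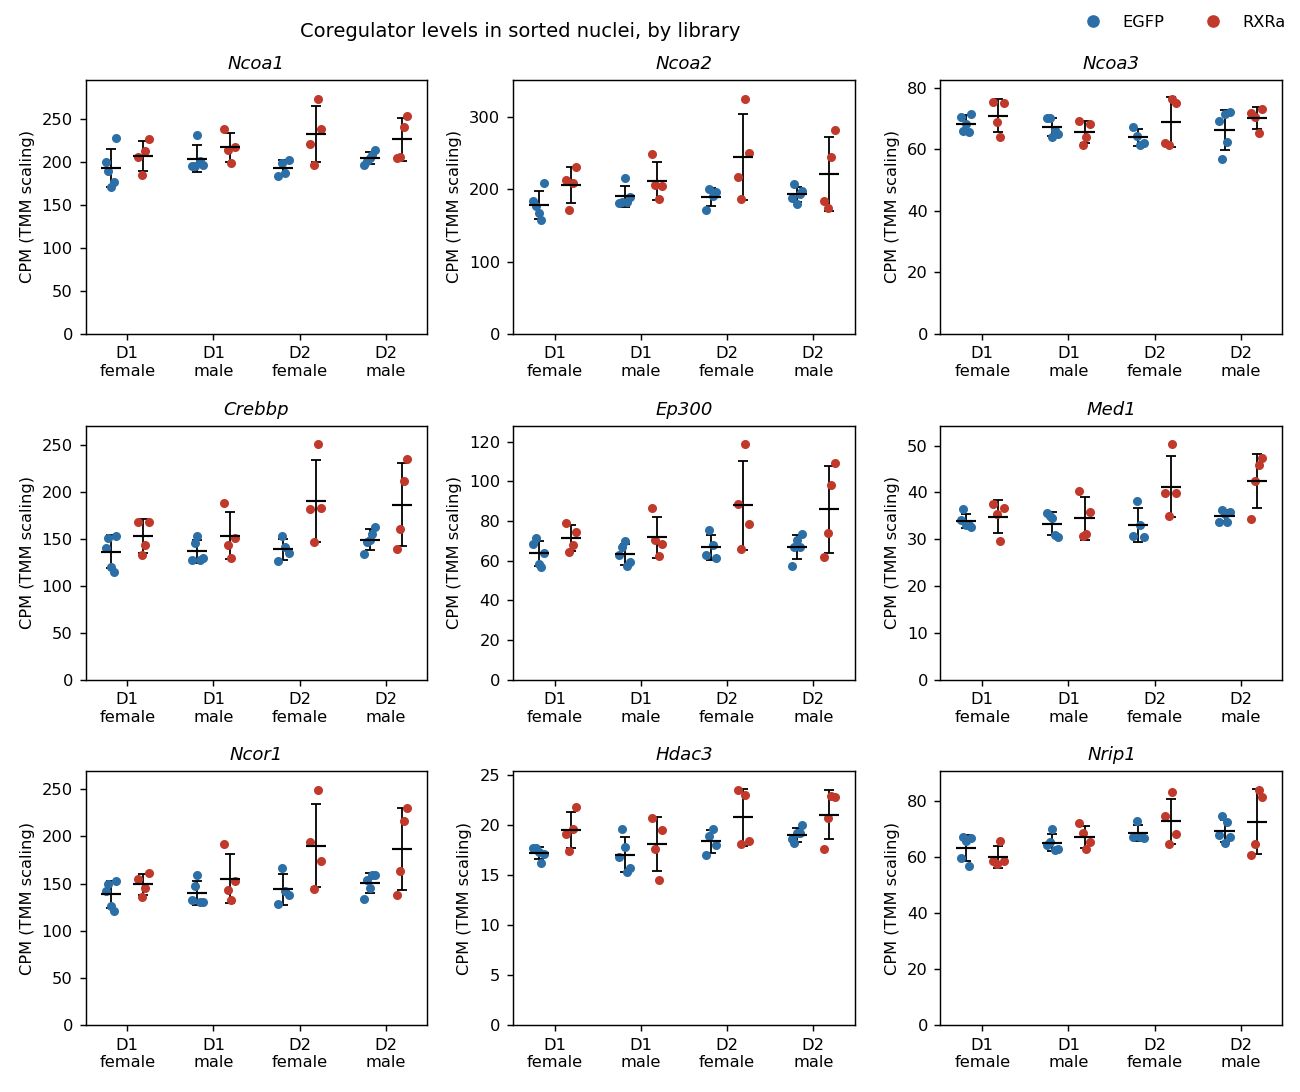
Each panel shows 1 coregulator in sorted nuclei as CPM with TMM scaling on an axis from 0, a dot per library (blue EGFP, red RXRa) for D1 and D2 nuclei of each sex, with the group mean as a line and its SD as a bar. In D2 the red dots spread upward from within the blue range, up to 251 CPM for Crebbp and 249 for Ncor1, rather than standing apart from it.

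The calls rested most on 1 library, D2 female RXRa 4, and moved with other libraries too. It had the highest level among D2 libraries for 7 of the 9 genes, the most vector RXRa of all libraries (710 CPM) and the lowest silent-gene density in D2 (0.388). Without it no gene in the table was called. The 6 differences then ran from 0.15 (Ncoa1, adjusted p 0.121) to 0.29 (Crebbp, adjusted p 0.0616), and all 9 stayed above 0. Leaving out D2 male RXRa 5 (density 0.399, 619 CPM of vector RXRa) left 1 of the 9 and 1633 genes called. Leaving out D2 female EGFP 1, D2 female RXRa 5 or D2 male RXRa 3 left 4 of the 9. Calls rose to 7 of the 9 without D2 female RXRa 3 (13649 genes) or without D2 male RXRa 1 (14766 genes).

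Silent-gene density moved with the vector in D2 nuclei, with medians of 0.526 (female) and 0.534 (male) under EGFP and 0.462 and 0.459 under RXRa. In a fit with log2 density as a covariate 0 genes were called, and the 9 differences ran from -0.03 (Ncoa3) to 0.12 (Ncor1, SE 0.09, adjusted p 0.913). Because density itself differed between the vectors, that fit cannot tell a change with density from a change with the vector. With scaling by library totals alone, which moves the median of all genes from -0.04 to -0.20 and the share of calls that are higher from 67.6% to 18.1%, 3 of the 9 were called: Crebbp (0.20, adjusted p 0.0205), Ncor1 (0.17, 0.0377) and Ep300 (0.19, 0.0389). Under that scaling Ncoa3, Nrip1 and Hdac3 were at -0.07, -0.10 and -0.01, none called.

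**Figure D4:**
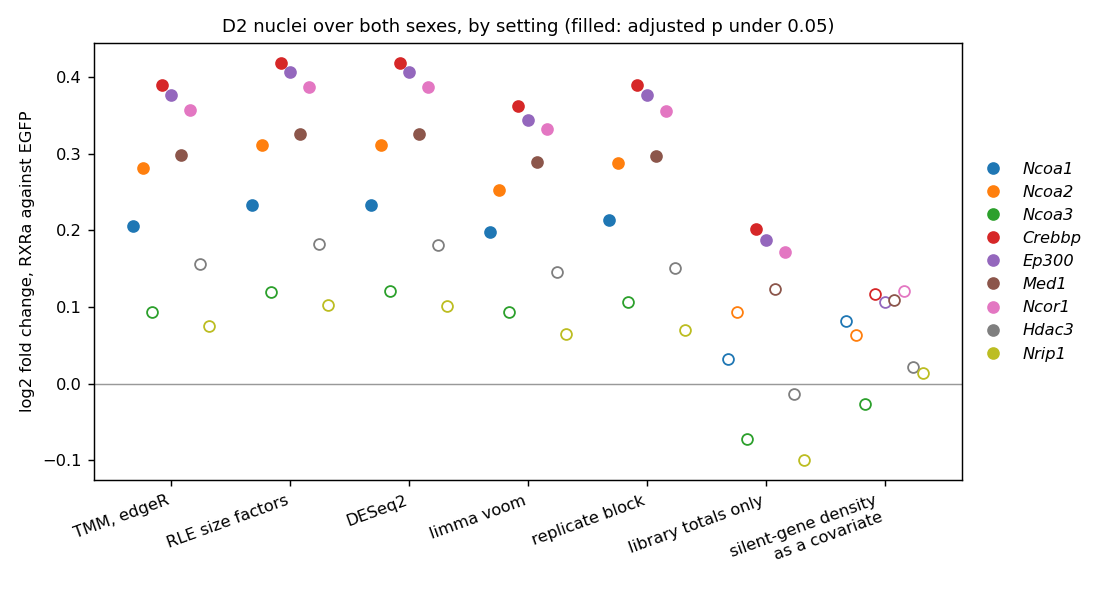
Log2 fold changes of the 9 coregulators in D2 nuclei over both sexes (RXRa against EGFP) are plotted for 7 settings, a colour per gene, filled where the adjusted p is under 0.05. With TMM, RLE, DESeq2, limma voom and the replicate block 6 points are filled, with library totals only 3, and with silent-gene density as a covariate 0.

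Markers of the sorted populations moved in the same libraries. Of 5 D2 markers 4 were called higher with RXRa in D2 nuclei (Drd2 by 0.75, SE 0.16), and of 4 D1 markers 2 (Drd1 by 0.89, SE 0.25). Summed D2 markers ran from 762 to 1472 CPM in EGFP and from 890 to 2743 in RXRa libraries, while 2 of 5 astrocyte markers were called lower. Interferon-response genes, all called higher in bulk, were called lower here for 5 of 10 (Ifit1 by -0.81, SE 0.23, and B2m by -0.57, SE 0.17). Summed levels of the 10 were 63.4 to 100.2 CPM in EGFP and 62.5 to 75.0 in RXRa libraries, against 1254 to 1793 in bulk GFP. Silent-gene density also had lower medians under RXRa, and its part in the lower calls of this comparison was not tested. Of the other markers, 1 of 5 for T and NK cells (Ptprc) and 1 of 4 endothelial (Slco1a4) were called lower. Of 5 microglial markers 1 was higher (P2ry12) and 1 lower (Csf1r), and 0 of 5 oligodendrocyte and 0 of 4 interneuron markers were called. The part of these shifts in the coregulator values was not tested.

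Other coregulators were called in the same direction. In D2 nuclei 34 of 69 (49.3%) were called higher and 0 lower, with a median of 0.23, a share near the 44.7% of all genes above 10 CPM in bulk. Tbl1x, a WD-repeat subunit of the NCOR1 complex, was higher by 0.36 (SE 0.11). Of 32 Mediator genes 11 were higher, led by Med8 (0.42, SE 0.09) and Med25 (0.40, SE 0.10). Among other coactivators it was 14 of 19, led by the histone methyltransferase Kmt2d (0.49, SE 0.14) and the acetyltransferase Kat2a (0.46, SE 0.13). Among other corepressors it was 7 of 14, led by the deacetylase Hdac2 (0.39, SE 0.12) and Lcor (0.36, SE 0.08). No call was left without D2 female RXRa 4 or with density as a covariate. In D1 nuclei 0 of 69 were called (median 0.07).

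The comparison of D2 with D1 nuclei under EGFP asks whether the populations differ in these genes at baseline. There 53 genes (0.121%) were called, and 0 of the 9 (0 also at an unadjusted p under 0.05, and 0 by DESeq2). Differences ran from -0.06 (Ncoa3, interval -0.16 to 0.05) to 0.13 (Hdac3, -0.01 to 0.26). Ncoa1 was the closest to equal, at 171 to 232 CPM in 10 D1 libraries and 184 to 215 in 9 D2 libraries, a difference of 0.00 (-0.12 to 0.13). None of the other 69 coregulators was called.

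Under RXRa, 3 of the 9 were called higher in D2 than in D1 nuclei, where 8.36% of genes were called, 6.85% as higher in D2, and 22% as higher among genes above 10 CPM in bulk. They were Med1 (0.27, SE 0.07, adjusted p 0.0314), Ncor1 (0.31, SE 0.10, 0.0451) and Nrip1 (0.19, SE 0.06, 0.0464). Crebbp (0.30, 0.0539) and Ep300 (0.28, 0.0722) had differences of similar size but missed the threshold. These RXRa libraries are also those of the comparisons with EGFP above. Their vector RXRa reached 710 CPM in D2 but 285 CPM in D1, with ranges that overlapped. Population and vector level cannot be told apart in this comparison.

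Med1 had 29.6 to 40.3 CPM in the 8 D1 RXRa libraries, with a median of 35.6, and 34.3 to 50.3 in the 8 D2 RXRa libraries, with a median of 41.2. For Ncor1 the D1 range was 132 to 192 CPM (median 149) and the D2 range 139 to 249 (median 184). Nrip1, not called between vectors in either population, had 57.4 to 71.9 CPM (median 64.0) in D1 and 60.6 to 83.7 (median 71.4) in D2. All 3 pairs of ranges overlapped.

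These calls depended on single libraries. With any of 9 libraries left out in turn 0 of the 9 were called, and without D2 female RXRa 4 the values were 0.20 for Med1 (adjusted p 0.129), 0.21 for Ncor1 (0.186) and 0.14 for Nrip1 (0.187). The 9 were D1 female RXRa 2, 4 and 5, D1 male RXRa 2 and 3, D2 female RXRa 2 and 4, and D2 male RXRa 3 and 5. Leaving out D1 male RXRa 5 left 1, and leaving out D2 female RXRa 3, D1 male RXRa 1 or D2 male RXRa 1 gave 5, 5 and 6. With silent-gene density as a covariate 4 were called, the same 3 and Crebbp (Med1 0.24, adjusted p 0.0104). The count was 0 with library totals only and 5 with DESeq2. Of the 69 other coregulators 9 were called higher (3 Mediator genes, 4 coactivators and 2 corepressors), among them Med31 (0.56, SE 0.14), Med17 (0.44, SE 0.11), Kat2a (0.48, SE 0.13), Nsd1 (0.35, SE 0.11), Hdac2 (0.43, SE 0.13) and Sin3a (0.24, SE 0.08), and 0 lower.

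Whether RXRa acted differently on the 9 in D2 and in D1 nuclei was tested directly, with no term for vector RXRa, which reached higher levels in D2 libraries. That difference was called for 0% of genes and 0 of the 9 by edgeR (3609 genes and 1 of the 9 at an unadjusted p under 0.05). All 9 estimates were above 0, from 0.02 (Hdac3) to 0.25 (Med1, interval 0.05 to 0.46, unadjusted p 0.0154, adjusted p 0.601), and DESeq2 called 0 genes. The 6 calls in D2 and 0 in D1 therefore do not show that the populations responded differently.

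**Figure D5:**
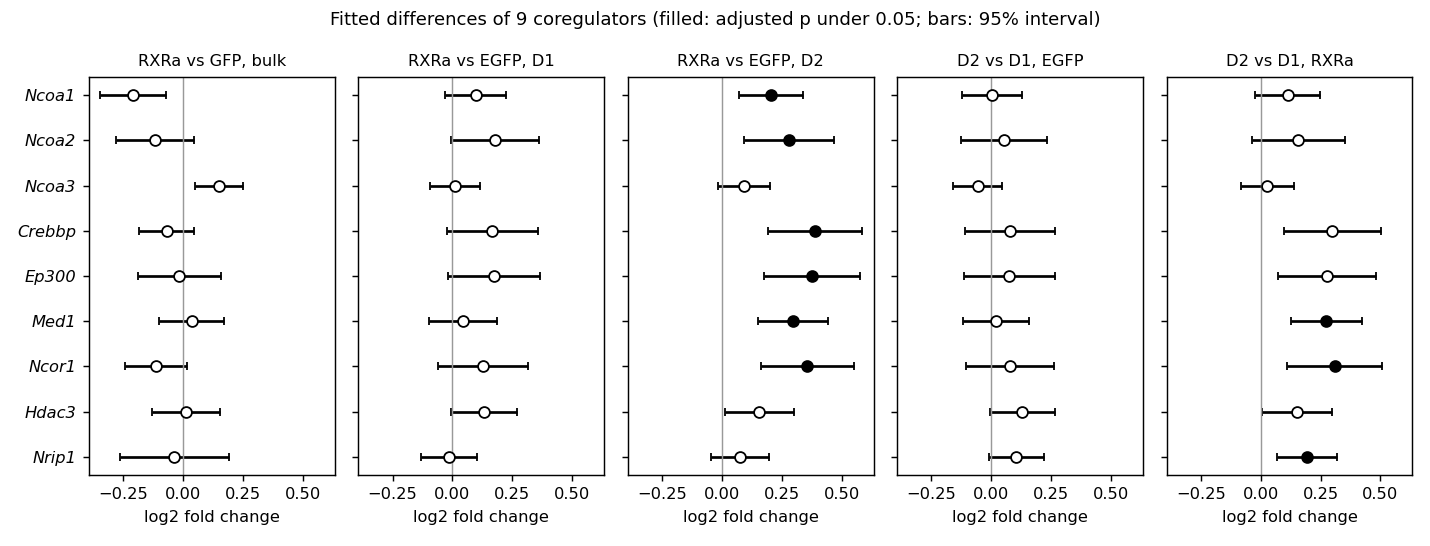
Fitted log2 fold changes of the 9 coregulators (dots) with 95% intervals (bars) are shown for 5 comparisons, filled where the adjusted p over all genes is under 0.05. There are 6 filled dots for RXRa against EGFP in D2, 3 for D2 against D1 under RXRa, and 0 in bulk, D1 or D2 against D1 under EGFP.

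Between the sexes, EGFP libraries gave 1947 called genes (4.43%) and 0 of the 9, with 0 at an unadjusted p under 0.05. Differences, female against male, ran from -0.08 (Ncoa1, interval -0.21 to 0.04) to 0.00 (Ep300, -0.18 to 0.19). Among the 69 other coregulators 4 (5.8%), all X-linked, were called higher in females, where 1505 of 43902 genes were. The share called among X-linked genes was not taken. Med12 had 20.4 to 23.4 CPM in 9 female libraries and 11 to 14.3 in 10 male libraries (0.81, SE 0.07, adjusted p 1.15e-11), with no overlap. Kdm6a, a histone demethylase known to escape X inactivation, had 72.6 to 105 and 46.8 to 66.8 CPM (0.71, SE 0.10), also with no overlap. Med14 (0.56, SE 0.09) and Tbl1x (0.52, SE 0.10) followed. Silent-gene density was taken from autosomes only, and the part of such counts in these X-linked values was not tested. The 1 called lower, the kinase gene Cdk8, rests on 1 library, D1 male EGFP 2, at 15383 CPM, and differed by -0.12 (adjusted p 1) without it.

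Finally, the 9 genes were compared with each other over the 8 sorted group means of log2 CPM, each centred on its own mean, among 32520 genes. The root mean square difference between Ncor1 and Crebbp was 0.024, between Ncor1 and Ep300 0.028, and between Crebbp and Ep300 0.029. For Ncor1, Crebbp was the 33rd nearest of all genes, and its nearest were Copa and Arl8b (both 0.014). For Crebbp the nearest were Abcc5 and Ash1l (0.012 and 0.014), and for Ep300 Mrs2 and Metap2 (both 0.023).

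The other 6 had no fellow member so near. Ncoa1 was nearest to Dnajc6 and Lonp2 (0.016 and 0.017), Ncoa2 to Larp4b and Nr3c2 (0.020 and 0.022), Ncoa3 to Plekhm1 and Mov10 (0.0092 and 0.015) and Med1 to Cdc23 and Ppp1r8 (0.015 and 0.016). Nrip1 was nearest to Gm4409 and Atm (0.020 and 0.021), and Hdac3 to Snapc1 and Naxd (0.025 and 0.026). Group means of the 9 genes ranged over 0.15 (Ncoa3) to 0.47 (Crebbp) on the log2 scale, with D2 female RXRa highest for 6 of them. These likenesses describe 8 means of the same libraries, so they share depth, scaling and silent-gene density.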

How the data were processed

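Gene counts were deposited by the authors as 2 tables of unnormalized whole numbers, 1 for bulk tissue (poly(A) RNA) and 1 for sorted nuclei (ribosome-depleted total RNA, stranded low-input kit, per the labels' protocols). Per the submitters' processing notes, FastQC, Trimmomatic, HISAT2, Picard, featureCounts (Subread) and GRCm38 were used. Which versions and annotation release were used, and whether counting took strand or introns into account, is not given in the sources used here. Of 44 samples 43 were grouped by their labels, and 1, whose labels disagree, entered no comparison. No per-sample column was left unused. No 2 libraries of a group agreed within counting noise (72 pairs, lowest chi-square per degree of freedom 1.91).

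Each table was fitted whole in R 4.3.3 with edgeR 4.0.16: filterByExpr by group, TMM scaling, the quasi-likelihood test over all groups of the table, 13 contrasts, and Benjamini-Hochberg adjustment over all genes tested, with a threshold of 0.05. Standard errors and 95% intervals came from the F statistic. CPM use TMM library sizes, except for the library in no group and the ranges set beside it (library totals). The fit was tested on simulated data. Alternatives were RLE size factors, library totals only, 2 other filters, DESeq2 1.42.0, limma 3.58.1 (voom), the replicate number as a block, silent-gene density (genes of at least 5 kb) as a covariate, and leaving out each library. Gene positions came from GENCODE M21, which matched 55394 of the 55487 identifiers.

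The 9 coregulators, the lists of other coregulators and markers, the density measure and the backgrounds of 10 CPM and 40 kb were chosen with earlier results of these data known. All 9 are named throughout. Of each list of other coregulators with a call, the count is given, with the 2 called genes that rose most and the 2 that fell most, except 1 gene and its list's count, which, like 1 marker and its list in D2 nuclei, are not reported here. Likeness names the 2 nearest genes with a mean of at least 1 CPM. Markers were named after their values were seen. Shared replicate numbers were not taken to pair samples, since same-numbered libraries did not all deviate together.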

Additional observations from a re-analysis of the deposited data

Results flagged for a closer look

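In 4 of 90 tests of a gene within a group, 1 library stood apart from the others by Dixon's criterion, which chance meets about 1 time in 20. D1 male EGFP replicate 3 was high for both Ncoa1 (232.1 CPM, the others 195.3 to 202) and Ncoa2 (215.6 CPM, the others 181 to 189.7). Nrip1 was high in D1 female RXRa replicate 4 (65.54 CPM, the others 57.35 to 58.45) and in D2 female EGFP replicate 3 (72.73 CPM, the others 66.77 to 67.2). In the D2 female library that the labels put in no group, vector RXRa had 2941 counts, while the highest sorted EGFP library had 17.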

How the results depend on the processing

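In bulk, DESeq2 called 1619 genes and 2 of the 9 coregulators and the replicate block 0 genes, and leaving out 1 library gave 9 to 1016 genes and 0 of the 9 throughout. In D1 females DESeq2 called 4 genes, the replicate block 1 and leaving out 1 library 0 to 4, none of the 9. In D2 females DESeq2 called 3672 genes and 6 of the 9, and leaving out 1 library 0 to 6699 genes and 0 to 6. In D2 males DESeq2 called 23 genes, limma voom 1, and leaving out 1 library 0 to 5986 genes and 0 to 4 of the 9. In D2 over both sexes library totals called 3 of the 9, the density covariate 0 genes and 0 of the 9, and leaving out 1 library 0 to 14766 genes and 0 to 7. For D2 against D1 under EGFP, DESeq2 called 90 genes and leaving out 1 library 36 to 61. Under RXRa library totals called 1114 genes and 0 of the 9, either other filter 1 of the 9, DESeq2 5722 genes and 5, voom 864 and 1, the replicate block 236 and 0, and leaving out 1 library 118 to 9886 and 0 to 6. For the sex difference of the RXRa effect in D1, DESeq2 called 2 genes and leaving out 1 library 0 to 3. Between the sexes the filter on a mean CPM of at least 1 gave 1024 genes. Except where a fit with fewer libraries or genes shows it, the cause was not tested.

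Same-numbered libraries had correlations from -0.528 to 0.575, over 0.1 in 8 of 19 pairs, and 4 of the 19 pairs agreed best with their own number. The replicate block kept all 6 calls in D2 over both sexes (8535 genes). Of 2745 alternative values of single coregulators 158 changed sign, all uncalled in both fits. In the edgeR fit with TMM scaling and all 4 or 5 libraries a group, the smallest difference called among the 9 was 0.19 (Nrip1, D2 against D1 under RXRa).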

Other observations

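The D2 female library whose labels disagree on its vector had 15630501 counts in all, 188 CPM of vector RXRa, and levels per library total of 155 CPM for Ncor1, 207 for Ncoa1, 183 for Ncoa2, 73.1 for Ncoa3, 42.9 for Med1, 77.2 for Ep300, 174 for Crebbp, 69.6 for Nrip1 and 19 for Hdac3. For 3 of the 9 it lay outside the ranges of both D2 female groups, below them for Ncoa2 and above them for Ncoa3 and Med1.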
